A study of Homo sapiens with 6 samples.

Results

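The enzymes that activate, degrade or are blocked by 5-fluorouracil were examined in DLD-1 cells with and without induced DKK1. The members were the 8 genes TYMS, DPYD, TYMP, UPP1, UMPS, TK1, RRM1 and RRM2, of 18404 genes that the arrays cover with a probe set of their own. They were picked for their known roles, with earlier results of these data known. Each had 1 probe set that the platform annotation pairs with that gene alone, so that 8 of 32321 probe sets are described. DLD-1 is a colorectal adenocarcinoma line with mutated APC, and according to the study it makes no DKK1 of its own. DLD-1/DKK1 cells carried a lentivirus that drives V5-tagged DKK1 together with green fluorescent protein under doxycycline. DLD-1/Mock cells carried the matching virus without DKK1. Both groups had received doxycycline for a day, 10 mg/ml in the labels and the same figure in micrograms per ml in the study's methods. The study's methods give transduction of nearly all cells as typical and name no cloning step. RNA of 3 dishes per group was used, with 1 array per dish. No cells without doxycycline and no cells exposed to 5-fluorouracil were among the samples, so the values describe cells given doxycycline but not 5-fluorouracil.

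Fluoropyrimidines such as 5-fluorouracil are the backbone of chemotherapy in colorectal cancer. The base is inert until enzymes of pyrimidine salvage convert it to nucleotides. UMPS adds a ribose phosphate directly, UPP1 and TYMP make nucleosides, and TK1 phosphorylates the deoxynucleoside. Ribonucleotide reductase, built from RRM1 and RRM2, turns fluorinated ribonucleotides into deoxyribonucleotides. The active deoxynucleotide locks thymidylate synthase (TYMS) in a complex with reduced folate and stops the supply of thymidylate for DNA. DPYD starts the breakdown of the drug. TYMS, TK1 and RRM2 are classical genes of the S phase, when thymidylate and other deoxynucleotides are in demand.

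With DKK1 induced, none of the 8 enzymes differed from DLD-1/Mock beyond the spread between arrays. The log2 differences ran from -0.093 for TYMP to 0.064 for RRM2, with 5 genes above 0 and 3 below. None passed an adjusted p of 0.05 (0.596 to 0.983, limma), while 0.0866% of all probe sets did, and none had an unadjusted p under 0.05, against 9.23% of all probe sets. In no member did the arrays of one group lie wholly above those of the other, a pattern found in 16.5% of all probe sets. The smallest difference among the 28 probe sets that passed was 0.36 in absolute log2 units. That value depends on the threshold and on 3 arrays per group, so it does not mark the smallest effect of DKK1. The 95% interval of every member lay within -0.21 to 0.21, or 0.864-fold to 1.16-fold. These intervals cover the spread between the 6 arrays and are taken gene by gene.

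**Figure D1:**
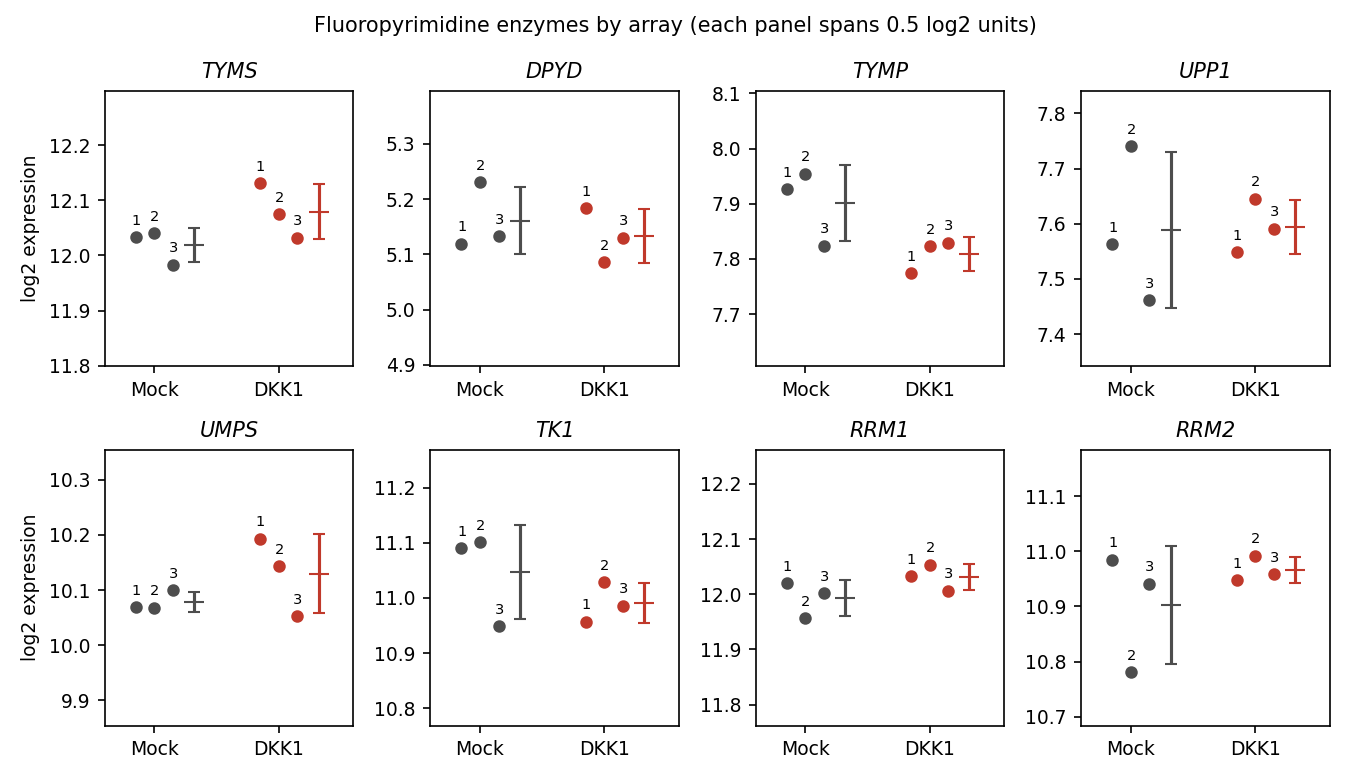
Log2 expression (vertical axis) of the 8 enzymes under Mock (grey) and DKK1 (red). Each numbered point is the array of that replicate, and the bar with whiskers beside the points is the mean ± SD (n = 3). Every panel spans the same length of the log2 scale, and the groups overlap in all 8 panels.

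The arrays themselves were checked first. DKK1 lay at 5.15, 5.74 and 5.01 in the Mock arrays and at 12.30, 12.38 and 12.36 in the DKK1 arrays (limma adjusted p = 0.00015), so that the induced gene had the direction that the labels give. Epithelial and intestinal genes were bright, with EPCAM, CDH1, KRT8, KRT18, CDX2 and VIL1 at group means of 9.85 to 12.94, whereas the differentiation markers KRT20 and CEACAM5 were dim at 5.51 to 6.38. Group means of 4 leukocyte markers ran from 4.34 (PTPRC) to 6.36 (CD14), those of 3 endothelial markers from 5.19 to 6.19, those of 4 fibroblast markers from 4.39 (DCN) to 7.52 (COL1A1) and those of 2 hepatocyte markers from 4.72 (ALB) to 6.10 (APOA2). None of these markers passed. CD14, a monocyte receptor, had a difference of -0.27 (limma adjusted p = 0.462) with the groups apart, and CEACAM5 had -0.14 (limma adjusted p = 0.539). The groups were also apart for KRT8 (-0.11), KRT18 (-0.080), VIL1 (0.11), PECAM1 (-0.10) and COL3A1 (-0.15), as in 16.5% of all probe sets. Their part in the enzymes' values was not tested. Array medians were 6.82 to 6.86 in Mock and 6.76 to 6.81 in DKK1, each Mock median above each DKK1 median. Centring the arrays on their medians moved the enzymes' differences up, to between -0.040 for TYMP and 0.12 for RRM2. Of the 8 enzymes 6 were then above 0, as were 12946 of 18404 genes, and no enzyme passed the threshold. Mock 2 correlated less with the others (0.9953 to 0.9969 across probe sets) than they did with each other (at least 0.9973), and values without it are given beside the enzymes that it moved most. Levels are log2 values of each gene's own probe set. Probe sets differ in their affinity, so levels do not rank the enzymes, and percentiles among all probe sets only describe how strong a signal was.

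TYMS (probe set 8019842), the target of the drug, lay at 12.03, 12.04 and 11.98 in the Mock arrays and at 12.13, 12.07 and 12.03 in the DKK1 arrays. DKK1 1 and DKK1 2 were above every Mock array and DKK1 3 was below Mock 1 and Mock 2. The group means were 12.02 ± 0.03 and 12.08 ± 0.05 (SD, n = 3 each), a log2 difference of 0.061 (SE 0.044, 95% interval -0.045 to 0.17; limma adjusted p = 0.677), or 1.04-fold with an interval of 0.969 to 1.12. It was 0.035 without DKK1 1 and 0.11 after median centring. A two-sided exact permutation test over the arrays gave p = 0.3, the smallest possible value being 0.1. The TYMS probe set was among the brightest of the array (percentile 96.7 of all probe sets), and processed pseudogenes of TYMS exist in the genome whose transcripts could add to its signal. ENOSF1 and the long non-coding RNA TYMSOS lie next to TYMS in the annotation and were not analysed here. In these bulk values, a changed share of cells in S phase and a changed RNA level per cell cannot be told apart. This holds for every enzyme of S phase below.

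UMPS (probe set 8082229), which supplies the ribonucleotide directly from the base, lay at 10.07, 10.07 and 10.10 in the Mock arrays and at 10.19, 10.14 and 10.05 in the DKK1 arrays. The DKK1 arrays were thus both the highest and the lowest of the 6. The difference was 0.051 (SE 0.048, 95% interval -0.065 to 0.17; limma adjusted p = 0.746). It was 0.019 without DKK1 1, 0.089 without DKK1 3 and 0.10 after median centring.

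The nucleoside phosphorylases UPP1 and TYMP showed no common direction. UPP1 (probe set 8132725), which couples uracil or 5-fluorouracil to ribose, lay at 7.56, 7.74 and 7.46 in Mock and at 7.55, 7.65 and 7.59 in DKK1. All 3 DKK1 arrays fell within the range of the Mock arrays, and the difference was 0.0064 (SE 0.076, 95% interval -0.18 to 0.19; limma adjusted p = 0.983). UPP1 had the largest spread of the members, with a residual SD of 0.106 against a median of 0.074 over all probe sets. Its difference was 0.083 without Mock 2 and -0.057 without Mock 3.

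TYMP (probe set 8077103), the thymidine phosphorylase that activates the drug to its deoxynucleoside, lay at 7.93, 7.95 and 7.82 in Mock and at 7.77, 7.82 and 7.83 in DKK1. Mock 1 and Mock 2 were the highest arrays, while Mock 3 lay among the DKK1 arrays. TYMP had the largest difference and the smallest p of the 8 enzymes. The log2 difference was -0.093 (SE 0.049, 95% interval -0.21 to 0.024; limma adjusted p = 0.596), or 0.938-fold, and the exact permutation p was 0.2. Without Mock 3 the difference was -0.13 (limma adjusted p = 0.499), and without Mock 2 it was -0.066. SCO2, a mitochondrial copper chaperone encoded beside TYMP and overlapping it in the annotation, had a difference of -0.046 with an interval of -0.20 to 0.11, and part of the signal could be shared between both.

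TK1 (probe set 8018849), the cytosolic thymidine kinase, lay at 11.09, 11.10 and 10.95 in Mock and at 10.96, 11.03 and 10.99 in DKK1. The order of the Mock arrays was that of TYMP, with Mock 3 the lowest of all 6 arrays here. The difference was -0.056 (SE 0.054, 95% interval -0.19 to 0.074; limma adjusted p = 0.749). It was -0.11 without Mock 3, -0.029 without Mock 2, -0.035 without Mock 1 and -0.0038 after median centring.

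Ribonucleotide reductase was next. RRM1 (probe set 7937915), the large subunit that holds the catalytic site, had the smallest residual spread of the members (SD 0.028, percentile 6.9 of all probe sets). It lay at 12.02, 11.96 and 12.00 in Mock and at 12.03, 12.05 and 12.01 in DKK1. Only DKK1 3 was within the Mock range. The difference was 0.038 (SE 0.040, 95% interval -0.057 to 0.13; limma adjusted p = 0.764). It was 0.020 without Mock 2 and 0.090 after median centring.

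RRM2 (probe set 8040223), the small subunit that carries the tyrosyl radical, lay at 10.98, 10.78 and 10.94 in Mock and at 10.95, 10.99 and 10.96 in DKK1. Mock 2 alone was low, and the remaining 5 arrays lay between 10.94 and 10.99. The difference of 0.064 (SE 0.061, 95% interval -0.082 to 0.21; limma adjusted p = 0.745) was 0.0033 without Mock 2. RRM2B, the small subunit used outside S phase, had a difference of -0.015 with an interval of -0.13 to 0.098. Pseudogenes of RRM2 are annotated as well, and their share in its probe set signal is not known here.

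DPYD (probe set 7917912), the rate-limiting enzyme of fluoropyrimidine breakdown, lay at 5.12, 5.23 and 5.13 in Mock and at 5.18, 5.09 and 5.13 in DKK1, at percentile 26.2 of all probe sets. Mock 2 was the highest array and DKK1 2 the lowest. No detection call was used here, so expression of DPYD above background was not shown in either group. The difference was -0.028 (SE 0.050, 95% interval -0.15 to 0.091; limma adjusted p = 0.869). Without Mock 2 it was 0.0070, so that its sign rested on that array. At a weak signal fold changes are compressed, and the interval bounds the array value rather than the transcript. The enzymes that follow it in the breakdown also had weak signals, DPYS at percentile 22.0 and UPB1 at percentile 35.9.

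**Figure D2:**
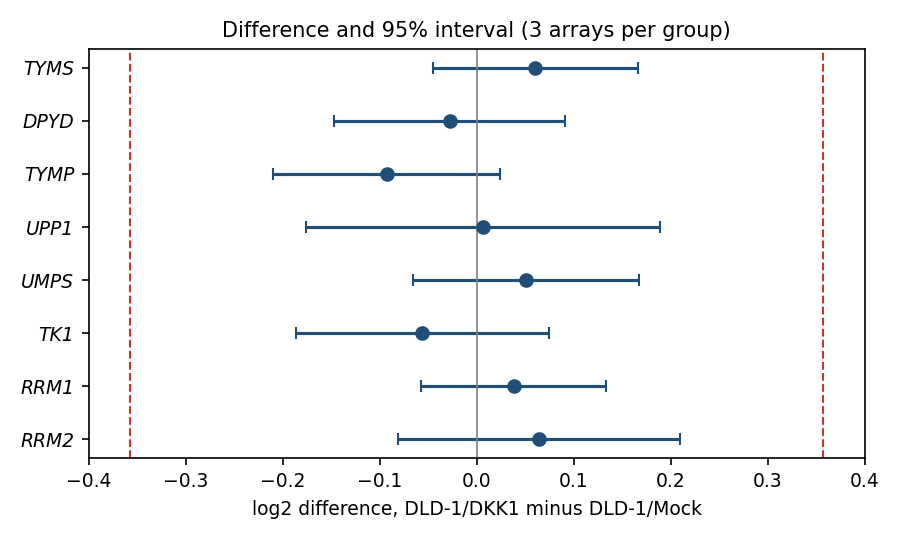
Log2 difference of DLD-1/DKK1 minus DLD-1/Mock (horizontal axis) for the 8 enzymes. Points are limma estimates, and whiskers reach over their 95% intervals (3 arrays per group). Dashed lines mark 0.36 in both directions, the smallest absolute difference among the 28 probe sets that passed, and every interval crosses 0 and lies inside them.

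The 8 enzymes were then compared across the arrays, since several are known to be expressed together in dividing cells. Of the 28 pairs, 3 had an unadjusted exact permutation p under 0.05 for Pearson's r and 0 passed after Benjamini-Hochberg adjustment over the 28, the smallest adjusted p being 0.22. TYMP and TK1 had r = 0.92 (exact permutation p = 0.0208) and Spearman's rho = 0.71 (exact permutation p = 0.136) over 6 arrays. RRM1 and RRM2 had r = 0.89 (exact permutation p = 0.0236) and rho = 0.83 (exact permutation p = 0.0583), and DPYD and RRM2 had r = -0.89 (exact permutation p = 0.00833) and rho = -0.94 (exact permutation p = 0.0167). For TYMP and TK1, r was 0.42 without Mock 1 and Mock 2, the arrays farthest from the median, but 0.86 without Mock 2 alone, 0.97 after quantile normalisation and 0.88 after median centring. For both reductase subunits, r was 0.19 without Mock 2 and DKK1 2, 0.64 without Mock 2, 0.58 after quantile normalisation and 0.93 after median centring. For DPYD and RRM2, r was -0.84 without Mock 2 and DKK1 1 and -0.84 after quantile normalisation, but -0.34 after median centring. TYMS had r = -0.096 with TK1, 0.48 with RRM1 and 0.12 with RRM2. These were 0.16, 0.34 and -0.26 after quantile normalisation and 0.20, 0.81 and 0.59 after median centring, so that the signs with TK1 and RRM2 depended on the scaling.

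**Figure D3:**
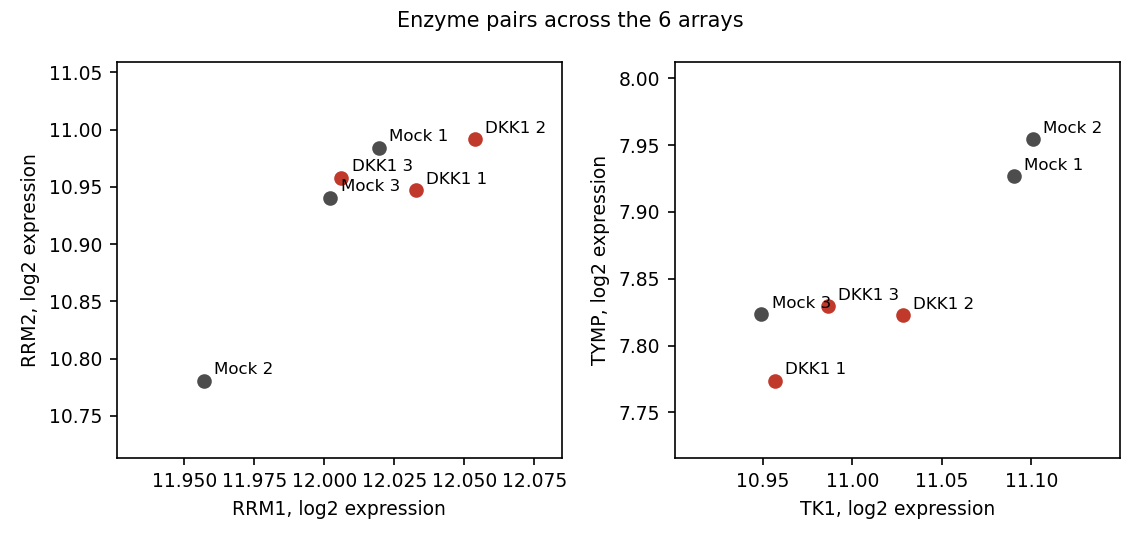
Log2 expression of RRM2 against RRM1 (left) and of TYMP against TK1 (right) in the 6 arrays, with DLD-1/Mock in grey and DLD-1/DKK1 in red. Mock 2 stands apart in the left panel, and Mock 1 and Mock 2 in the right panel.

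As a description, the genes with values most like TYMS over the 6 arrays, among 11650 probe sets of 1 gene above the median brightness, were POMGNT1 (r = 0.991, rho = 0.94), TBC1D22B (r = 0.991, rho = 1.00) and GCDH (r = 0.981, rho = 0.83). Of these probe sets, 87 had r above 0.9 with TYMS, and all the values share the same 6 arrays.

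The letters of known promoter elements were searched in the 300 bases around each annotated start of the 8 genes (RefSeq, GRCh38.p14, 250 before and 50 after), on both strands. CCAAT is the core of the CCAAT box bound by NF-Y, and TTTCCCGC, TTTCGCGC and TTTGGCGC are forms of the E2F element of S-phase genes. They are shown for the S-phase enzymes and the reductase pair, read on the strand of the motif, with the motif in capitals.
TYMS, chr18:657603-657632, opposite strand: tccgcgcgcctTTTCCCGCggccgtcccgc
RRM1, chr11:4094645-4094673, same strand: gcatgtccatatCCAATggggcccatggg
RRM2, chr2:10122604-10122632, same strand: ggcaaggcgcagCCAATgggaagggtcgg
RRM2, chr2:10122634-10122662, same strand: ggcatggcacagCCAATgggaagggccgg
RRM2, chr2:10122661-10122689, same strand: ggggcaccaaagCCAATgggaagggccgg
TK1, chr17:78187113-78187141, opposite strand: gccgccatggggCCAATcagcgcccggcc
TK1, chr17:78187082-78187110, opposite strand: acggcgtgctggCCAATcacgagccggcc

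RRM2 held 3 CCAAT matches, 123, 93 and 66 bases before its start farthest downstream, each followed by the same gggaaggg. TK1 held 2, at 77 and 46 bases before the downstream one of its starts, and RRM1 held 1, at 28 bases. TYMS had no CCAAT match and 1 TTTCCCGC match, 39 bases before its start. RRM2 held 1 more CCAAT match, 249 bases before its upstream start at the edge of the window and so not shown. TYMP held 1 CCAAT, 39 and 112 bases before its starts, and DPYD, UPP1 and UMPS held none. CCAAT was found in 34.6% of all 35116 windows of the table and TTTCCCGC in 1.63%. TTTCGCGC (0.515%) and TTTGGCGC (0.652%) were in no window of the 8 genes. The Sp1-type GGGCGG, present in 45.0% of all windows, was found for every member but TYMS and UMPS, and TATAAA (11.5%) for TK1 at its upstream start alone. A match is a run of letters, and no binding was measured at these sites in these data.

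Neighbouring steps of the pathway were taken from 7 short lists, of whose 50 genes 45 were measured. None of the 45 passed over all probe sets, and 4 had an unadjusted limma p under 0.05. Of these 2 were higher (4.02% of all probe sets, 859 of 18404 genes) and 2 lower (5.21%, 1003 of 18404 genes). The median difference over the 45 was -0.0078, against -0.0072 over all genes, with 22 above 0. In 10 of the 45 the groups did not overlap (16.5% of all probe sets, and 3587 of 18404 genes with 1 probe set each).

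Among them GGH, the lysosomal hydrolase that trims the glutamate tail of folates, had the largest difference. It lay at 10.37, 10.10 and 10.24 in Mock and at 10.52, 10.50 and 10.50 in DKK1. All DKK1 arrays were above all Mock arrays, and the log2 difference was 0.27 (SE 0.071, 95% interval 0.10 to 0.44; unadjusted p = 0.00755, limma adjusted p = 0.408). The other 7 measured genes of the folate list, among them SHMT2 (0.027) and the folate carrier SLC19A1 (-0.072), had intervals that crossed 0.

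DCK, which phosphorylates deoxycytidine, lay at 9.73, 9.69 and 9.66 in Mock and at 9.79, 9.86 and 9.77 in DKK1, a log2 difference of 0.11 (SE 0.044; limma adjusted p = 0.524). It belongs to the list of activating enzymes, of whose 11 genes 9 were above 0 with a median of 0.034. CDA is the cytidine deaminase that also takes part in the conversion of the prodrug capecitabine. It lay at 8.12, 8.14 and 8.18 in Mock and at 8.02, 8.08 and 8.02 in DKK1, a log2 difference of -0.11 (SE 0.040; limma adjusted p = 0.522). In both genes the groups were apart, with log2 differences of the order of 0.1. All 5 genes of prodrug conversion and breakdown were below 0, with a median of -0.075, though CES1, DPYS and UPB1 among them had weak signals (percentiles 22.0 to 35.9). After another scaling the median was -0.046 to -0.023 with up to 1 of the 5 above 0. With 1 array left out it was -0.11 to -0.016 (the latter without Mock 2), with up to 2 above 0.

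The nucleoside transporters had 1 of 6 genes above 0. SLC28A1, a concentrative carrier of pyrimidine nucleosides, had a weak signal and a difference of -0.14 (SE 0.055; limma adjusted p = 0.524), while SLC29A1, the equilibrative carrier, had -0.054 with an interval of -0.15 to 0.044. Deoxynucleotide pool genes had 3 of 7 above 0, with DUT, which removes dUTP and its fluorinated form, at 0.094 (95% interval -0.018 to 0.21) and SAMHD1, a hydrolase of deoxynucleotides, at 0.13 (-0.011 to 0.26). De novo pyrimidine synthesis genes had 2 of 4 above 0, and uracil excision genes had 3 of 4, with UNG, the main uracil DNA glycosylase, at 0.081 (-0.035 to 0.20). After median centring, 6 of 7 deoxynucleotide pool genes, 4 of 4 de novo synthesis genes, 7 of 8 folate genes and 11 of 11 activating genes were above 0. So were 3 of 4 uracil excision, 2 of 6 transporter and 1 of 5 prodrug and breakdown genes. Over all genes 12946 of 18404 were then above 0, with a median of 0.045.

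**Figure D4:**
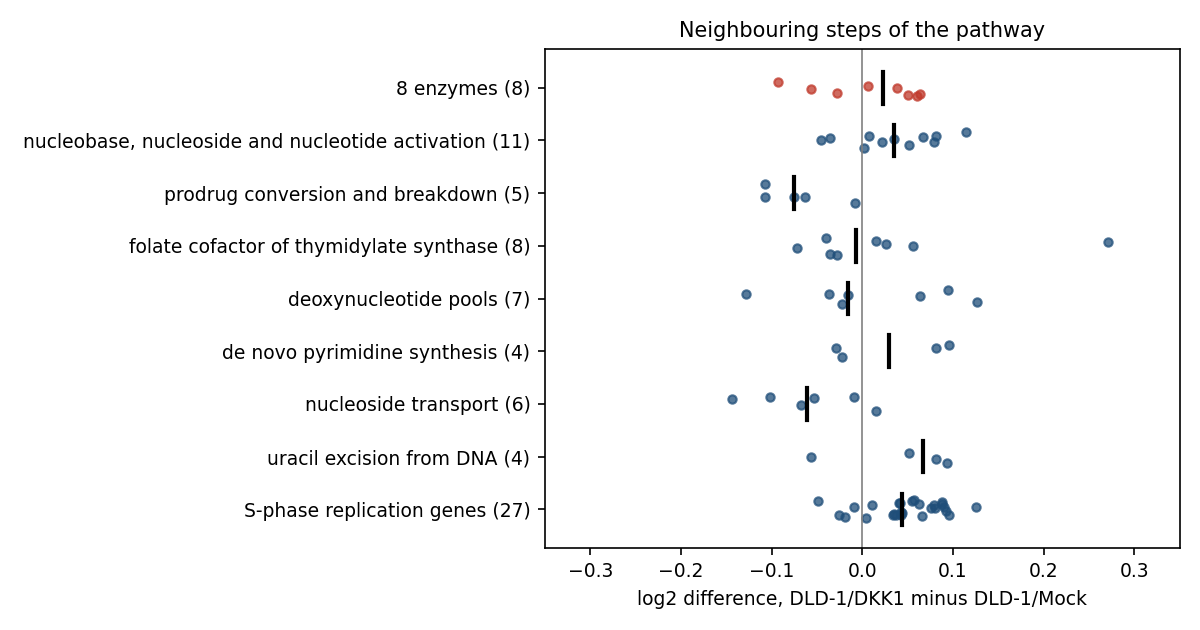
Log2 difference of DLD-1/DKK1 minus DLD-1/Mock (horizontal axis) for the 8 enzymes (red) and for each measured gene of the neighbouring lists (blue), and of S-phase replication, with a bar for the median and the number of genes in brackets. GGH lies highest at 0.27, and the list medians run from -0.075 for prodrug conversion and breakdown to 0.066 for uracil excision.

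A list of 27 genes of DNA replication in S phase was set beside TYMS, TK1, RRM1 and RRM2. It also held regulators such as RB1 (log2 difference 0.042) and E2F4 (0.0035). Of the 27 genes 23 were above 0, with a median of 0.043 and none past the threshold. Over all genes 8539 of 18404 were above 0, with a median of -0.0072. The groups did not overlap in 6 of the 27, against 3587 of 18404 genes. An unadjusted limma p under 0.05 was found for 1 of the 27, which was higher, against 859 of 18404 genes higher. After quantile normalisation or cyclic loess 22 were above 0, with list medians of 0.031 and 0.023. After median centring 27 were above 0, where the median of all genes was 0.045 and that of the list 0.096. With 1 array left out 20 to 23 were above 0. CDC6, which loads the replicative helicase, lay at 11.27, 11.27 and 11.25 in Mock and at 11.36, 11.38 and 11.34 in DKK1 and had the smallest p of the list. Its log2 difference was 0.096 (SE 0.037; limma adjusted p = 0.524). TYMS, RRM1 and RRM2 had differences in the same direction as most of this list and TK1 did not. Averaged over the 27 genes, the deviation from each gene's mean was lowest in Mock 2 (-0.039) and highest in DKK1 2 (0.048), where 1 of the 27 was below its mean. The part of these shifts in the members' values was not tested.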

How the data were processed

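Expression was measured on 6 whole-transcript Affymetrix arrays (Human Gene 1.0 ST), 3 for each group. The authors made the deposited log2 values by the robust multichip average method, which equalises probe intensities between arrays before summarising them, so that medians over probe sets can still differ, and compresses differences at low brightness. The sources used here give neither versions nor the build of the array annotation. Of 32321 probe sets, 19158 had 1 gene symbol, 1388 several and 11775 none. Groups and replicate numbers came from the sample titles. Whether the dishes go back to more than 1 transduction is not known here, so the p-values cover dish-to-dish spread alone.

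The deposited values were fitted without further scaling by lmFit and eBayes of limma 3.58.1 under R 4.3.3 (two-sided, 4 residual and 2.56 prior degrees of freedom), with Benjamini-Hochberg adjustment over all probe sets and a threshold of 0.05. Intervals are at 95%. The steps were tested on simulated data with changes far larger than those of the enzymes, so recovery of changes of the enzymes' size was not tested. For lists, the brightest probe set of a gene was kept. The members and lists were chosen with earlier results of these data known. All members were described, and from each pathway list up to 3 genes with an unadjusted p under 0.05, besides DKK1, RRM2B, SCO2 beside TYMP and the 3 genes most like TYMS. Cell type markers were given by range. Other genes of the lists are examples chosen after their values were seen. Alternatives were quantile normalisation, median centring, cyclic loess, a brightness filter, an annotation filter, array weights, a trended, robust prior, replicate number as block, leaving out single arrays and, for lists, the mean of a gene's probe sets. Promoter windows came from RefSeq (GRCh38.p14), and all 8 members matched. Figures were drawn with matplotlib 3.10.9.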

Additional observations from a re-analysis of the deposited data

How the results depend on the processing

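In every alternative 0 of the 8 enzymes and 0 genes of the pathway lists passed. The enzymes' intervals reached at most -0.25 (TYMP without DKK1 3) and 0.29 (RRM2 after median centring). Median centring gave DPYD a difference of 0.024. Leaving out single arrays gave -0.053 to 0.0070 for DPYD and -0.057 to 0.083 for UPP1. The other 6 kept their sign in all alternatives. DPYD was not fitted above the median brightness, where its probe set is left out. An unadjusted p under 0.05 was reached by TYMP without Mock 3 (limma adjusted p = 0.499) and by no other enzyme in any alternative. The number of all probe sets past the threshold, 28 here (12 higher, 16 lower), was 98 among annotated ones, 66 above the median brightness, 59 with array weights, 53 with a trended and robust prior, 17 after median centring (10 higher, 7 lower), 1 with the replicate number as a block and 2 to 6 with 1 array left out. The cause was not tested.

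No pairing by replicate number was visible. Deviations from the group means had correlations of 0.10, 0.0082 and -0.14 between same-numbered arrays and of -0.23 to 0.23 between the others. With 3 arrays per group these values cannot show whether the dishes were handled in pairs. With 1 array per group for each replicate number, the replicate block leaves every difference as it is (TYMS 0.061) and moves the error alone. No enzyme or list gene passed with it, and the limma adjusted p was 0.738 for TYMS, 0.693 for TYMP and 0.796 for RRM2.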
